A study of Homo sapiens with 4 samples.

Results

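The genes described here encode the folding machinery of the cytosol and of mitochondria. They were measured in MDA-MB-231, a widely used human cell line from a breast cancer that lacks hormone receptors and HER2 amplification. They are the 40 genes whose Ensembl identifiers in the deposited count table map to a listed symbol of the HSP70, HSP90, HSP40, small HSP, chaperonin or heat shock factor families. All 40 were among the 20263 genes of the table, and all 40 passed the low-count filter that left 13744 genes. Their mRNA was measured by RNA sequencing after 24 h with RB-BC in 2 libraries, and with the vehicle DMSO in 2 libraries. RB-BC is described as derived from ribociclib, a drug that blocks the cell-cycle kinases CDK4 and CDK6. Both groups grew in DMEM with 10% fetal bovine serum and antibiotics, and the labels give no genetic change. No dose appears in the labels, and their protocol text names Rib_CA without stating its relation to RB-BC. The labels do not say whether the replicates were separate cultures, and the p-values below therefore reflect a spread between libraries that could be technical.

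Chaperones bind proteins that are unfolded or not yet assembled and let them fold without clumping. HSP70 proteins do this in cycles of ATP hydrolysis that J-domain proteins (HSP40) start and nucleotide exchange factors end, and they hand some clients on to HSP90, which matures kinases and steroid receptors. The TRiC ring folds actin and tubulin, and HSP60 with HSP10 forms the corresponding chamber in mitochondria. When unfolded protein accumulates, the transcription factor HSF1 binds heat shock elements, arrays of alternating GAA and TTC units, and raises transcription of many of these genes. Cancer cells commonly keep a high level of this programme.

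Library totals ran from 34774542 to 42786422 counts. Mitochondrially encoded genes took 10.1% and 10.3% of counts in RB-BC and 8.68% and 21.7% in DMSO, so DMSO 2 stood apart. Of the line's markers, the mesenchymal gene VIM had at least 3303 CPM (counts scaled to a common library size) and CD44 at least 447 in every library, while the epithelial cadherin CDH1 had at most 2 counts. The T cell gene CD3E had 0 counts in all libraries. The keratins KRT8, KRT18 and KRT19, listed as low in this line, were at 173 to 361 CPM, and CD68, listed as an immune gene, at 148 to 502 CPM. Below, a level is a CPM value scaled by edgeR's TMM factors, and a log2 fold change is RB-BC over DMSO with its standard error (SE). Adjusted p-values are from edgeR's quasi-likelihood test with Benjamini-Hochberg adjustment over 13744 genes, and a gene is said to rise or fall only where its adjusted p was below 0.05.

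Chaperone transcripts were lower in RB-BC on balance, and the genes that passed were mainly of the HSP70 family. Of the 40 genes 8 fell (20%), against 7.53% of all tested genes, and 0 rose, against 8.58%. The 8 were HSPA8, HSPA1A, HSPA1B, HSPA2, HSPA14, HSP90AA1, DNAJA1 and BAG3. HSPA1A and HSPA1B share much of their sequence, so their calls are not separate observations. The members were also chosen with earlier results of these data known, which limits the comparison with all tested genes. At an unadjusted p below 0.05 by edgeR, 17 of the 40 were lower, against 2331 of all 13744 tested genes (17.0%). In the other direction 1 of the 40 was higher, against 2497 of all 13744 (18.2%). DESeq2 called 14 lower (35%, against 11.5% of all tested genes) and 1 higher (2.5%, against 11.9%). With limma-voom 8 were called lower (20%, against 7.68%) and 0 higher, against 8.92%. Both RB-BC libraries lay below both DMSO libraries for 25 of the 40 (62.5%, against 32.1% of all tested genes) and above them for 7 (17.5%, against 33.1%). The median log2 fold change of the 40 was −0.33, against −0.0016 for all tested genes. The 40 genes together took 1.16% and 1.24% of all counts in RB-BC, against 1.79% and 1.37% in DMSO.

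With 1 library left out, the spread between libraries comes from the group that still has 2. The DMSO replicates differed more (chi-square per degree of freedom 222) than the RB-BC replicates (35.4). The number of calls in these fits therefore cannot show how far the calls rest on any 1 library. The median log2 fold change of the 40 stayed between −0.39 (without DMSO 2) and −0.23 (without RB-BC 1). Without RB-BC 1, or without RB-BC 2, 0 of the 40 passed edgeR's test (8 and 9 lower at an unadjusted p below 0.05), and calls over the whole table numbered 205 and 450 in place of 2214. The shares of all tested genes called lower and higher were then 0.402% and 1.07% without RB-BC 1, and 0.990% and 2.24% without RB-BC 2. Calls over the whole table became more frequent when a DMSO library was left out. Without DMSO 1, 9 of the 40 were called lower, against 11.6% of all tested genes, and 0 higher, against 11.5%. Without DMSO 2, 17 were called lower, against 12.5%, and 3 higher, against 13.5%. With mitochondrially encoded genes, which were abundant in DMSO 2, removed before scaling, 8 of the 40 were again called lower and 0 higher. Of all calls over the table in that fit, 53.6% were higher in RB-BC. That removal concerns the scaling alone, and whether DMSO 2 differed in other ways was not tested. In bulk RNA, fewer cells of a type and less RNA per cell cannot be told apart. HSPA8, HSP90AA1, HSPD1 and HSPE1 have processed pseudogenes, and how reads shared with these were counted is not known.

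**Figure D1:**
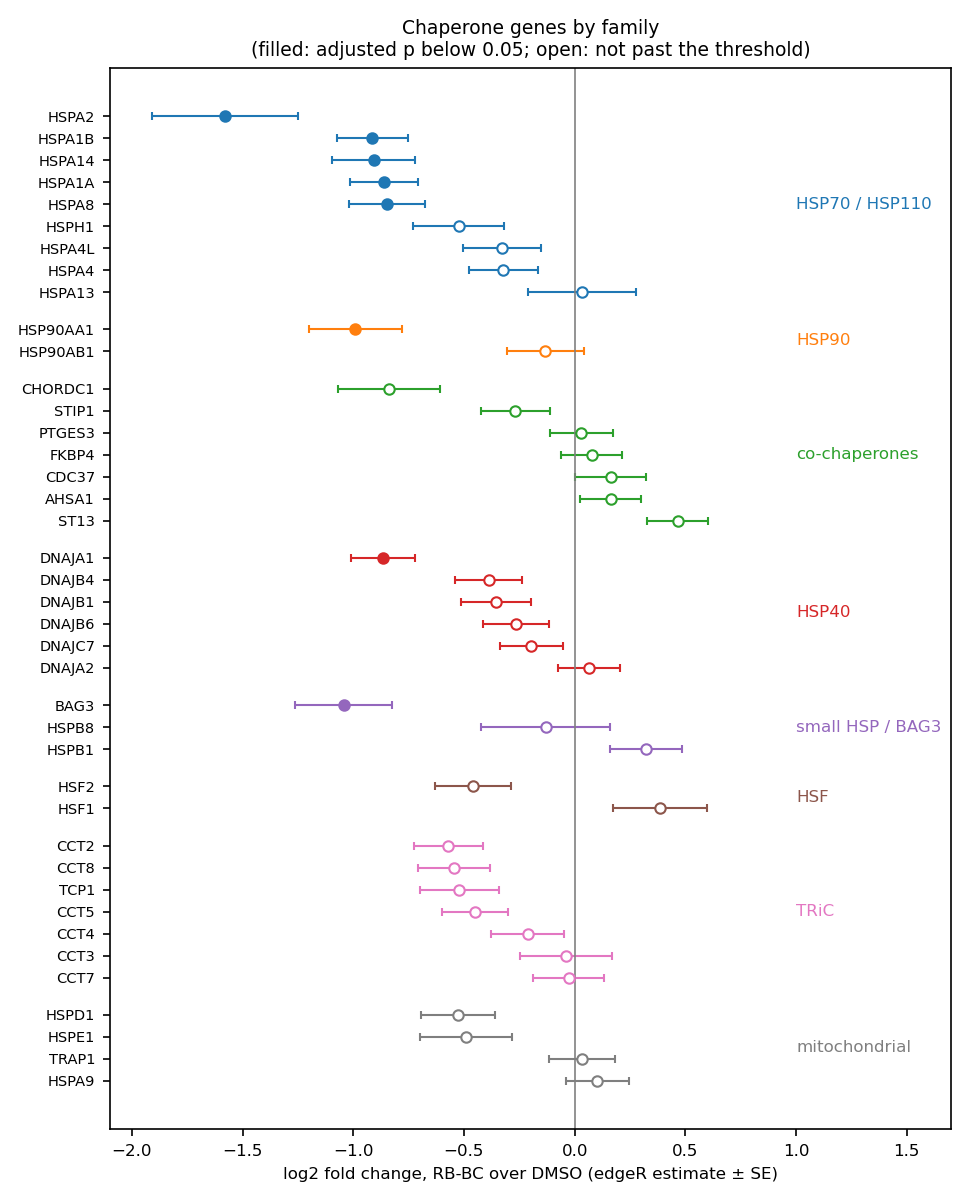
Log2 fold change (RB-BC over DMSO, edgeR estimate ± SE, 2 libraries per group) of the 40 chaperone genes, sorted within each family. Filled points passed the adjusted threshold of 0.05 and open points did not. All 8 filled points lie left of 0, 5 of them in the HSP70 and HSP110 family, while the HSP90 co-chaperone genes lie on both sides.

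HSPA8, HSC70, is the constitutive cytosolic HSP70. HSPA8 (ENSG00000109971) had 1650.25 and 1771 CPM in RB-BC, against 2915 and 3233 CPM in DMSO. The groups were far apart relative to the gap within each, and the log2 fold change was −0.85 ± 0.17 (edgeR adjusted p = 0.0281), 0.556 times the DMSO level. The range with any 1 library left out was −0.92 to −0.77.

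HSPA1A and HSPA1B are the stress-inducible HSP70 genes, which lie side by side and encode the same or nearly the same protein. HSPA1A (ENSG00000204389) had 85.8 and 101 CPM in RB-BC, against 162 and 177 CPM in DMSO, a log2 fold change of −0.86 ± 0.15 (edgeR adjusted p = 0.0209). HSPA1B (ENSG00000204388) had 154 and 181 CPM in RB-BC, against 298 and 333 CPM in DMSO, a change of −0.91 ± 0.16 (edgeR adjusted p = 0.0198). All 4 RB-BC values lay below the DMSO values of the same gene, with RB-BC 2 the higher of its pair for both genes. Of the 100-base windows of the HSPA1A transcript in GENCODE 29, 69.9% also occur exactly in HSPA1B, so how reads were split between the genes is uncertain. The ratio of HSPA1A to HSPA1B was 0.557 and 0.558 in RB-BC and 0.545 and 0.531 in DMSO, nearly constant across libraries.

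Stretches before the transcription starts of HSPA8, HSPA1A and HSPA1B are shown because they carry heat shock element units. Of the 8 HSP70 and HSP110 genes with a stretch to search, 4 held such a match. The stretches are the 250 bases before a start that RefSeq lists (GRCh38.p14), with matched units in capitals and the rest in lower case. The motifs searched, on both strands, were the pairs GAANNTTC and TTCNNGAA and a 3-unit array, GAANNTTC followed at once by NNGAA, whose matches contain a match of each pair.
HSPA8, chr11:123062137-123062386, minus strand: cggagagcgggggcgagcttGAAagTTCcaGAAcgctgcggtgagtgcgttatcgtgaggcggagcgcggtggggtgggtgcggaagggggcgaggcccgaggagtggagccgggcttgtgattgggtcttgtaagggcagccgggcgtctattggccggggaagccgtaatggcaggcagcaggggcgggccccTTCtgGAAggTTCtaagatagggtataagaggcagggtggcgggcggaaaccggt
HSPA1A, chr6:31815293-31815542, plus strand: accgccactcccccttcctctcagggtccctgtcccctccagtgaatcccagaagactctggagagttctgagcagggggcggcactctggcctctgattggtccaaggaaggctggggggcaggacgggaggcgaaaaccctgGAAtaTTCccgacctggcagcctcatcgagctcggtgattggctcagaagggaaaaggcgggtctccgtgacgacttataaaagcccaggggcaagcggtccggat
HSPA1B, chr6:31827488-31827737, plus strand: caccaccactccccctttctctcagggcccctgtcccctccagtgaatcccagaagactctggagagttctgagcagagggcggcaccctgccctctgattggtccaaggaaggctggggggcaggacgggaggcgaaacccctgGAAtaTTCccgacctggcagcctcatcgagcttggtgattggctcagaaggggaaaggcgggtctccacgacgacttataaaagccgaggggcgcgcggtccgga
HSPA8 has 3-unit arrays that begin 230 and 55 bases before the start. HSPA1A and HSPA1B each have 1 exact pair, 106 and 105 bases before the start, and their windows are 93.6% identical over 251 aligned positions. A match is a description of these letters and does not show that HSF1 was bound in these cells.

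HSPA14 (ENSG00000187522), a ribosome-associated HSP70-like protein, had 20.5 and 22.2 CPM in RB-BC, against 45.8 and 34.4 CPM in DMSO. HSPA14 fell by 0.91 ± 0.19 on the log2 scale (edgeR adjusted p = 0.0294). HSPA2 (ENSG00000126803), best known from the testis, had only 33 and 50 counts in RB-BC and 108 and 95 in DMSO, and its log2 fold change was −1.58 ± 0.33 (edgeR adjusted p = 0.0300). Both genes missed the threshold when libraries were scaled by their totals alone (edgeR adjusted p = 0.0895 for HSPA14, 0.0512 for HSPA2). They are the least abundant of the HSP70 genes that fell.

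The HSP110 genes encode large HSP70 relatives that act as nucleotide exchange factors, and 0 of the 3 passed edgeR's test. At an unadjusted p below 0.05 by edgeR, 1 was lower and 0 higher, against 17.0% and 18.2% of all tested genes. DESeq2 and limma-voom called 0. HSPH1, the inducible HSP110, had 171 and 193 CPM in RB-BC, against 307 and 217 CPM in DMSO (−0.52 ± 0.20, edgeR adjusted p = 0.128). Its groups did not overlap, but the DMSO libraries were 0.50 apart on the log2 scale, and its value depended on which was kept. It was at −0.75 without DMSO 2 and at −0.25 without DMSO 1. HSPA4 was at −0.32 ± 0.15 and HSPA4L at −0.33 ± 0.18 on the log2 scale. HSPA4L was at −0.52 without DMSO 2 and at −0.11 without DMSO 1. HSPA13, an HSP70-like protein of the endoplasmic reticulum, was at 0.03 ± 0.25 (95% interval −0.57 to 0.63), with 94.6 and 87.1 CPM in RB-BC between the DMSO values of 110.3 and 67.3 CPM.

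Of the cytosolic HSP90 paralogs 1 fell and the other did not pass. HSP90AA1 (ENSG00000080824), the stress-inducible cytosolic HSP90, had 1495 and 1535 CPM in RB-BC, against 3479.9 and 2543 CPM in DMSO. It fell by 0.99 ± 0.21 on the log2 scale (edgeR adjusted p = 0.0311), to 0.503 times the DMSO level, with a range of −1.20 to −0.75 when any 1 library was left out. With library totals alone its adjusted p was 0.0604. HSP90AB1, the constitutive form, had 1760.0 and 2071 CPM in RB-BC, against 2151 and 2051 CPM in DMSO. Its groups overlapped, and its change was −0.13 ± 0.17 (edgeR adjusted p = 0.619, 95% interval −0.56 to 0.29). The ratio of HSP90AA1 to HSP90AB1 within a library was 0.850 and 0.741 in RB-BC, against 1.62 and 1.24 in DMSO. HSP90AA1 thus had more counts than HSP90AB1 in both DMSO libraries and fewer in both RB-BC libraries. The ratio was 0.84 lower on the log2 scale in RB-BC (2-sided exact permutation p = 0.333), and 2 against 2 libraries cannot give a smaller p.

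Windows from both HSP90 genes are shown because both genes hold a 3-unit array and 1 of them fell.
HSP90AA1, chr14:102087045-102087294, minus strand: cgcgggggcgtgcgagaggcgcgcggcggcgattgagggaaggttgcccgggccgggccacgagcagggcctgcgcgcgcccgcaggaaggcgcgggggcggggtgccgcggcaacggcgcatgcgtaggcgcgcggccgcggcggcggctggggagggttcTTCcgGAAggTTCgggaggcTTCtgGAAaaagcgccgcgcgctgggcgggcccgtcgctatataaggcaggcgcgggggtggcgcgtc
HSP90AB1, chr6:44247693-44247942, plus strand: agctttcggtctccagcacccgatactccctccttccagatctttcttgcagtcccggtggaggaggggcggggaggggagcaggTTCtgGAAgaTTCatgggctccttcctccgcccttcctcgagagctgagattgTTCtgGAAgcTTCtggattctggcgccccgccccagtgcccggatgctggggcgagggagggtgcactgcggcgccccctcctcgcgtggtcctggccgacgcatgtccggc
The HSP90AA1 window has 1 array that begins 88 bases before the start, and a further pair that begins 68 bases before the start. The HSP90AB1 window has arrays that begin 165 and 112 bases before the start. Each gene has other starts in the RefSeq table whose windows hold no match, and both windows shown lie downstream of those starts. The other HSP90AB1 windows end at chr6:44246193 and chr6:44247100, before the window shown begins. The other HSP90AA1 window is chr14:102139750-102139999. Which start was used in these cells was not tested.

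**Figure D2:**
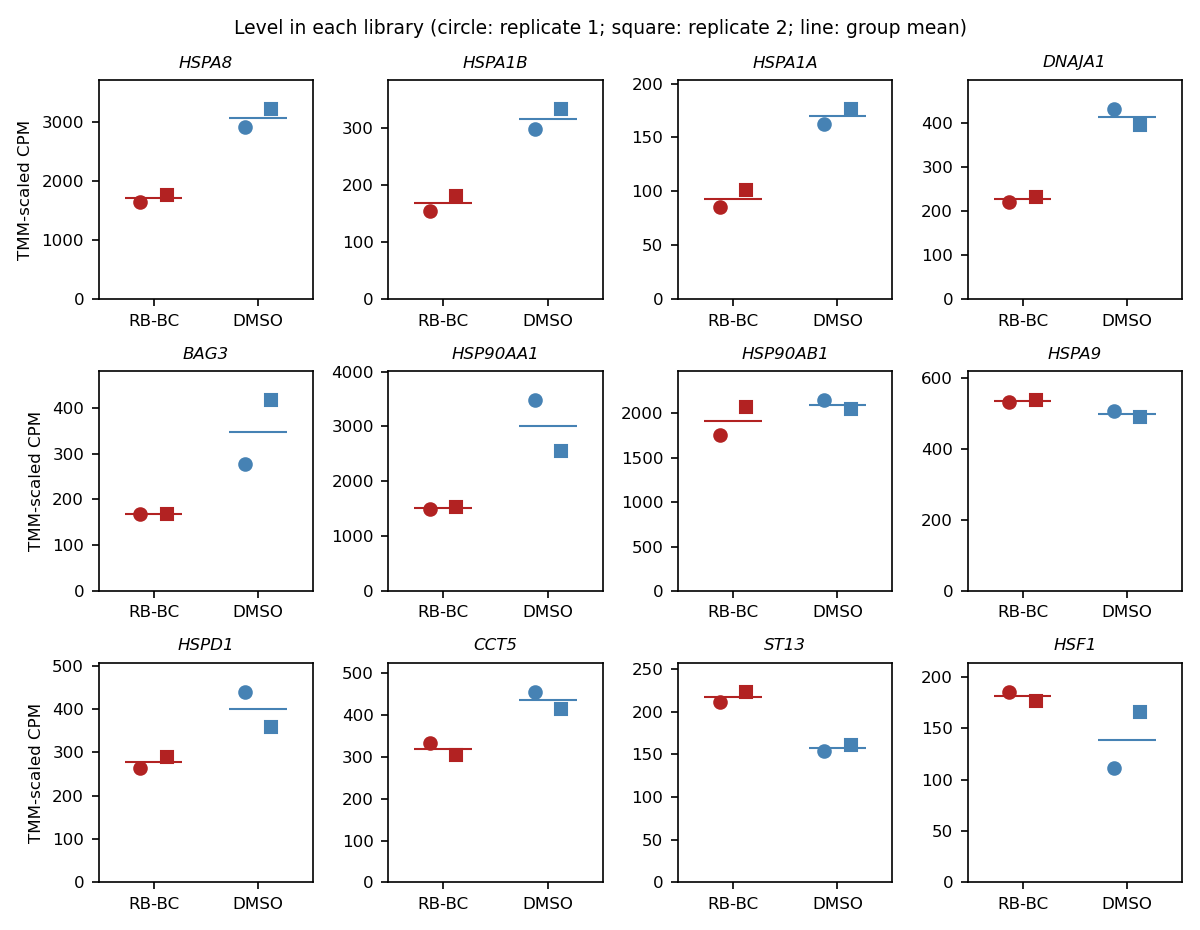
TMM-scaled CPM in each library for 12 chaperone genes, with RB-BC left of DMSO, circles for replicate 1, squares for replicate 2 and lines for group means. HSPA8, HSPA1A, HSPA1B, DNAJA1, BAG3 and HSP90AA1 are lower in both RB-BC libraries than in either DMSO library, while HSP90AB1 overlaps and ST13 is higher in both RB-BC libraries.

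Among J-domain proteins, which load clients onto HSP70, 1 of 6 fell and 0 rose, against 7.53% and 8.58% of all tested genes. At an unadjusted p below 0.05 by edgeR 2 were lower and 0 higher, against 17.0% and 18.2%. DESeq2 also called 1 lower and 0 higher, against 11.5% and 11.9%. With so few genes, no result about the family can be read from these counts. DNAJA1 (ENSG00000086061), a farnesylated partner of HSPA8, had 222 and 233 CPM in RB-BC, against 433 and 396 CPM in DMSO. Its log2 fold change of −0.86 ± 0.14 had the smallest adjusted p of the 40 genes (edgeR adjusted p = 0.0183). DNAJA2, its close relative, was at 0.07 ± 0.14 (95% interval −0.28 to 0.41), with overlapping groups. DNAJB1, the classic heat-inducible HSP40, had 136 and 166 CPM in RB-BC, against 188 and 199 CPM in DMSO (−0.36 ± 0.16, edgeR adjusted p = 0.171). DNAJB4 was at −0.39 ± 0.15, the anti-aggregation protein DNAJB6 at −0.26 ± 0.15 and the TPR-domain protein DNAJC7 at −0.20 ± 0.14. None of these passed edgeR's test. Each had both RB-BC libraries below both DMSO libraries, as did 32.1% of all tested genes.

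BAG3 (ENSG00000151929) is an HSP70 exchange factor that works with the small heat shock protein HSPB8 in selective autophagy. BAG3 had 169 and 169 CPM in RB-BC, against 277 and 417 CPM in DMSO. The RB-BC libraries were almost equal, whereas the DMSO libraries differed by 0.59 on the log2 scale, with DMSO 2 the higher, whereas 24 of the 40 genes were higher in DMSO 1. BAG3 fell by 1.04 ± 0.22 on the log2 scale (edgeR adjusted p = 0.0308), with −0.72 without DMSO 2 and −1.31 without DMSO 1. HSPB8 itself was at −0.13 ± 0.29 with overlapping groups. HSPB1, HSP27, an ATP-independent holdase, had 334 and 309.8 CPM in RB-BC, against 232 and 283 CPM in DMSO (0.32 ± 0.16, edgeR adjusted p = 0.213). HSPB1 was at 0.47 without DMSO 2 and at 0.19 without DMSO 1.

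Of the heat shock factors, 0 of 2 passed edgeR's test, and DESeq2 and limma-voom called 0. At an unadjusted p below 0.05 by edgeR, 1 was lower and 0 higher, against 17.0% and 18.2% of all tested genes. HSF1, the main activator of heat shock genes, had 186 and 177 CPM in RB-BC, against 112 and 166 CPM in DMSO (0.39 ± 0.21, edgeR adjusted p = 0.247). HSF1 was at 0.70 without DMSO 2 and at 0.13 without DMSO 1. HSF2 had 11.4 and 10.6 CPM in RB-BC, against 16.0 and 14.1 CPM in DMSO, and was at −0.46 ± 0.17 (edgeR adjusted p = 0.120). These are mRNA levels, and HSF1 activity, which is set largely by its release from chaperones and by phosphorylation, was not measured.

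Co-chaperones connect HSP70 and HSP90 to each other and to their clients. Of 7 genes 0 passed edgeR's test in either direction, and their median log2 fold change was 0.08. At an unadjusted p below 0.05 by edgeR, 1 was lower and 1 higher, against 17.0% and 18.2% of all tested genes. DESeq2 called 1 lower and 1 higher, against 11.5% and 11.9%, and limma-voom called 0. CHORDC1, an HSP90 co-chaperone that is itself heat-inducible, had 43.8 and 42.8 CPM in RB-BC, against 94.6 and 60.4 CPM in DMSO. It was at −0.84 ± 0.23 (edgeR adjusted p = 0.0569) and passed with DESeq2 (adjusted p = 0.00875). Its DMSO libraries were 0.65 apart on the log2 scale, and its change was −0.48 without DMSO 1 and −1.13 without DMSO 2. The sequence before its start is shown because it has the most 3-unit arrays of the genes searched, 3 overlapping ones that begin 60, 55 and 50 bases before the start.
CHORDC1, chr11:90223050-90223299, minus strand: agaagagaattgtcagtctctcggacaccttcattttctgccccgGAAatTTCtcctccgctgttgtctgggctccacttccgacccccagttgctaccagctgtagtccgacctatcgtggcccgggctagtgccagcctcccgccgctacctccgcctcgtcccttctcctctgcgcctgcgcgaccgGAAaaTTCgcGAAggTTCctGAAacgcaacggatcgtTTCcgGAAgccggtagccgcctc
ST13, or HIP, which holds HSP70 in its ADP-bound state, had higher values in RB-BC, with 212 and 224 CPM in RB-BC and 155 and 161 CPM in DMSO (0.47 ± 0.14, edgeR adjusted p = 0.0694). With DESeq2 it passed (adjusted p = 0.0191). It was at 0.49 without DMSO 2 and at 0.44 without DMSO 1. The ratio of HSPA8 to ST13 was 7.78 and 7.91 in RB-BC, against 18.9 and 20.1 in DMSO.

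The other co-chaperones lay closer to 0. STIP1, or HOP, which bridges HSP70 and HSP90, was at −0.27 ± 0.16 on the log2 scale. The ATPase activator AHSA1 (0.16 ± 0.14), the kinase adaptor CDC37 (0.16 ± 0.16), the steroid receptor immunophilin FKBP4 (0.08 ± 0.14) and the p23 gene PTGES3 (0.03 ± 0.14) had log2 fold changes above 0. The 95% intervals of these 5 genes all included 0. Summed over the 7 genes the level was 1800.2 and 1827 CPM in RB-BC and 1749 and 1841 CPM in DMSO, overlapping ranges.

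TRiC is a double ring of related subunits, and 7 of its genes are in the set. All 7 had log2 fold changes below 0 with TMM, except that CCT7 was at 0.01 with library totals alone and at 0.08 without DMSO 1 or RB-BC 2, and CCT3 at 0.25 without DMSO 1. Their median was −0.45, and 0 passed edgeR's test. At an unadjusted p below 0.05 by edgeR, 4 of the 7 were lower and 0 higher, against 17.0% and 18.2% of all tested genes. DESeq2 called 4 of the 7 lower, against 11.5%, and limma-voom called 0. CCT2 had 117 and 113 CPM in RB-BC, against 187 and 154 CPM in DMSO (−0.57 ± 0.16, edgeR adjusted p = 0.0585). TCP1, the alpha subunit, had 110.4 and 120.5 CPM in RB-BC, against 188 and 144 CPM in DMSO (−0.52 ± 0.18, edgeR adjusted p = 0.0963). CCT8 had 150.5 and 140.4 CPM in RB-BC, against 234 and 190.1 CPM in DMSO (−0.54 ± 0.16). CCT5 had 333 and 305 CPM in RB-BC, against 455 and 414 CPM in DMSO (−0.45 ± 0.15). Without DMSO 1, TCP1 was at −0.31. CCT4 (−0.21), CCT3 (−0.04) and CCT7 (−0.03) were nearer 0 on the log2 scale. All 7 genes were higher in DMSO 1 than in DMSO 2, by a median of 0.30 on the log2 scale. The part of the DMSO spread in these values was not tested.

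Of the mitochondrial chaperones 0 of 4 passed. HSPD1 (HSP60) and its lid HSPE1 (HSP10) are transcribed in opposite directions from 1 region, and the windows before their starts share 104 bases. HSPD1 had 264 and 289 CPM in RB-BC, against 439.9 and 358 CPM in DMSO (−0.53 ± 0.17, edgeR adjusted p = 0.0813). HSPE1 had 81.2 and 90.6 CPM in RB-BC, against 143 and 98.3 CPM in DMSO (−0.49 ± 0.21, edgeR adjusted p = 0.154). Neither passed, although HSPD1 did with DESeq2 (adjusted p = 0.0261). Without DMSO 2 HSPD1 was at −0.67 and HSPE1 at −0.74, and without DMSO 1 HSPD1 was at −0.37 and HSPE1 at −0.19. The ratio of HSPD1 to HSPE1 was 3.26 and 3.19 in RB-BC, within the 3.08 and 3.64 of DMSO.

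HSPA9, mortalin, the HSP70 of the mitochondrial import motor, had 532 and 537 CPM in RB-BC, against 506 and 491 CPM in DMSO (0.10 ± 0.14, edgeR adjusted p = 0.644, 95% interval −0.25 to 0.45). TRAP1, the mitochondrial HSP90, was at 0.03 ± 0.15 (95% interval −0.34 to 0.40). The mitochondrial group had 0 calls by edgeR and by limma-voom, and a median of −0.23. DESeq2 called 1 of the 4 lower, against 11.5% of all tested genes. At an unadjusted p below 0.05 by edgeR, 1 of the 4 was lower, against 17.0%. The ratio of cytosolic HSPA8 to mitochondrial HSPA9 was 3.10 and 3.30 in RB-BC, against 5.76 and 6.59 in DMSO. The ratio of HSPD1 to HSPA9 was 0.497 and 0.539 in RB-BC, against 0.870 and 0.729 in DMSO. Each of these ratios separated the groups (2-sided exact permutation p = 0.333, the smallest possible for each of the 6 ratios computed, so no adjustment over the 6 could pass).

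**Figure D3:**
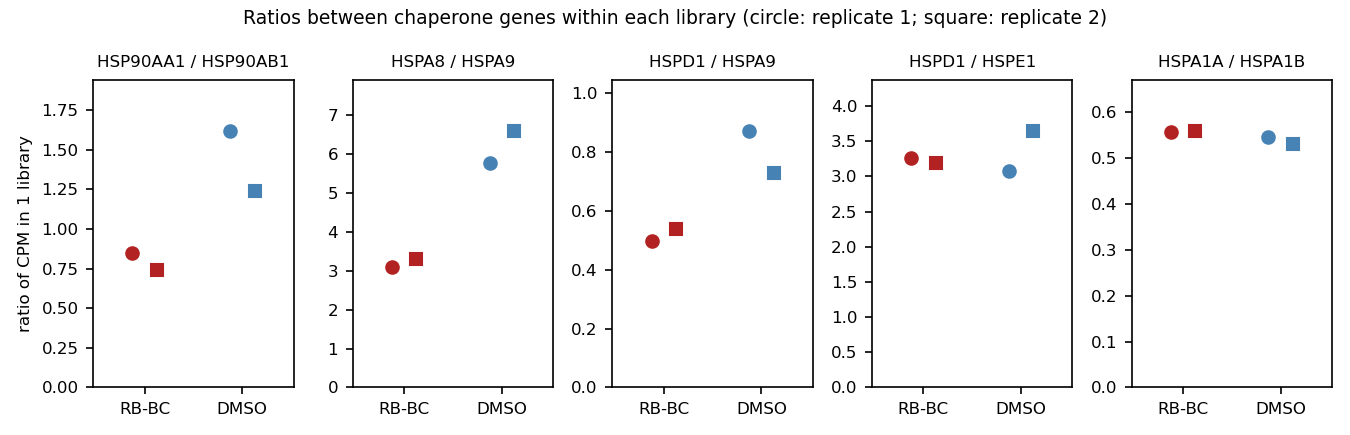
Ratio of 1 chaperone gene's CPM to another's within each library, RB-BC left of DMSO, circles for replicate 1 and squares for replicate 2. HSP90AA1 to HSP90AB1, HSPA8 to HSPA9 and HSPD1 to HSPA9 are lower in both RB-BC libraries, HSPD1 to HSPE1 overlaps, and HSPA1A to HSPA1B lies between 0.531 and 0.558 in all libraries.

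Set side by side, the families had median log2 fold changes of −0.85 for HSP70 and HSP110 (9 genes, 5 fell), −0.56 for HSP90 (2 genes, 1 fell), −0.45 for TRiC (7 genes, 0 passed), −0.31 for HSP40 (6 genes, 1 fell) and −0.23 for mitochondrial chaperones (4 genes, 0 passed). The medians were −0.13 for the small HSP genes with BAG3 (3 genes, 1 fell), −0.04 for the heat shock factors (2 genes, 0 passed) and 0.08 for the co-chaperones (7 genes, 0 passed). Over all tested genes 7.53% fell and 8.58% rose. The difference between families was not tested. Summed over its genes, the HSP70 and HSP110 family had 2472 and 2680.3 CPM in RB-BC, against 4260.0 and 4419 CPM in DMSO. HSP90 had 3255 and 3606 CPM in RB-BC, against 5631 and 4594 CPM in DMSO. HSP40 had 792 and 873 CPM in RB-BC, against 1132 and 1105 CPM in DMSO. For TRiC the sums were 1442 and 1372 CPM in RB-BC, against 1914 and 1561 CPM in DMSO, and for mitochondrial chaperones 1006 and 1036 CPM in RB-BC, against 1199.9 and 1077 CPM in DMSO. In each of these 5 families both RB-BC libraries lay below both DMSO libraries. The small HSP genes with BAG3 summed to 507 and 483 CPM in RB-BC, just below the lower of the DMSO sums of 513 and 706 CPM. The heat shock factors had higher sums in RB-BC, 197 and 187 CPM, against 128 and 179.8 CPM in DMSO. The HSP70 and HSP90 sums are carried mostly by HSPA8 and by the HSP90 paralogs.

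**Figure D4:**
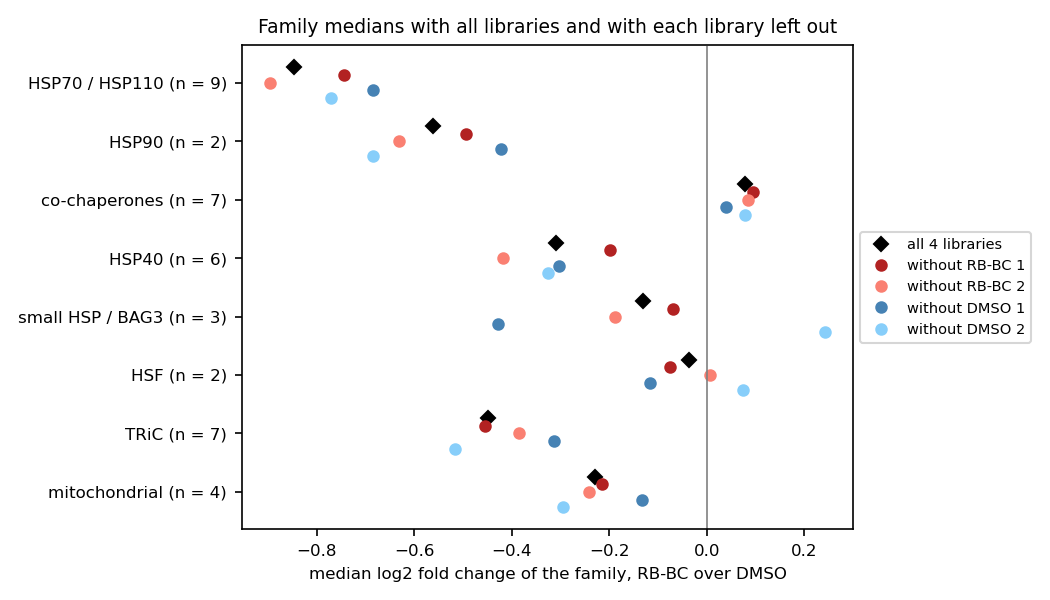
Median log2 fold change (RB-BC over DMSO) of each chaperone family with all 4 libraries (diamonds) and with each library left out in turn (circles). The HSP70 and HSP110 median stays between −0.90 and −0.68 and the TRiC median between −0.52 and −0.31, while the medians of the small HSP and BAG3 group and of the HSF pair lie on both sides of 0.

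The heat shock element search covered 36 of the 40 genes, matched by symbol to 51 windows, and HSPA14, FKBP4, ST13 and HSF1 were not searched. A 3-unit array was present for 6 of the 36 genes (16.7%), against 0.557% of 27305 genes with a window in the table. The 6 were HSPA8, HSP90AA1, HSP90AB1, CHORDC1, DNAJB6 and HSPD1. At least 1 pair was present for 16 of the 36 (44.4%), against 14.0% of all genes. Of the 7 genes that fell and had a window, 5 held a pair and 2 a 3-unit array. The 5 include HSPA1A and HSPA1B, whose windows are 93.6% identical and so are not separate observations. Of the 29 that did not pass, 11 held a pair and 4 a 3-unit array. DNAJA1 is shown as the HSP40 gene that fell, with 1 pair 198 bases before the start.
DNAJA1, chr9:33025023-33025272, plus strand: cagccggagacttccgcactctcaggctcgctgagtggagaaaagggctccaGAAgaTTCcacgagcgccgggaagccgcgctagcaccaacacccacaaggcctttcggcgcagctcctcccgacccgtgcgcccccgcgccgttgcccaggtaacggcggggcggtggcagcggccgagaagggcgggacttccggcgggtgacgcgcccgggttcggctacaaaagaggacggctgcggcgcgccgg
BAG3 and HSPA2, which also fell, had no exact pair in the windows searched, which says only that these letters are not there.

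**Figure D5:**
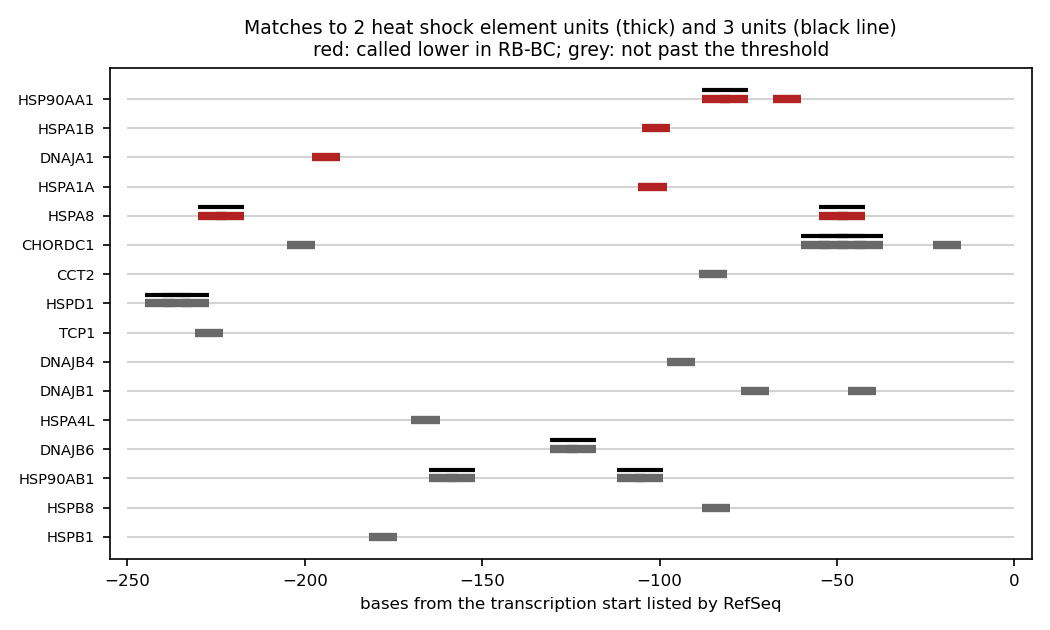
Positions of heat shock element matches in the 250 bases before the starts of the 16 chaperone genes with at least 1 pair, with distance from the start in bases on the horizontal axis. Thick bars are pairs, red for genes that fell in RB-BC and grey for genes that did not pass, and black lines above mark 3-unit arrays, which occur in both sets.

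Other chaperone genes, 91 in 7 lists, had calls in both directions. Of the 84 tested, 5 fell (5.95%, against 7.53% of all tested genes) and 6 rose (7.14%, against 8.58%), shares close to those of the whole table. Their median log2 fold change was 0.03, and the genes named below are given as single values, not as a result about the lists. DNAJC9, a J-domain histone chaperone, fell by 1.07 (46.7 and 51.5 CPM in RB-BC, against 108 and 97.6 CPM in DMSO, edgeR adjusted p = 0.0119). FKBP5, a steroid receptor immunophilin of HSP90, fell by 0.99 (edgeR adjusted p = 0.0181), while FKBP8, a mitochondrial immunophilin that anchors BCL2, rose by 1.10 (267 and 223 CPM in RB-BC, against 116 and 112 CPM in DMSO, edgeR adjusted p = 0.0130). The other falls were VBP1 (−0.73), a prefoldin subunit that feeds TRiC, BAG2 (−0.72), an HSP70 exchange factor, and ribosome-bound DNAJC2 (−0.68). The neural J-domain protein DNAJB2 rose by 0.72. CCT6A, a further TRiC subunit, was at −0.73 ± 0.19 (edgeR adjusted p = 0.0533).

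Of 15 other mitochondrial proteostasis genes 2 rose (13.3%, against 8.58% of all tested genes) and 0 fell, against 7.53%. At an unadjusted p below 0.05 by edgeR, 5 were higher (33.3%, against 18.2%) and 1 lower (6.67%, against 17.0%). The 2 that rose were the import motor gene PAM16 (1.53, edgeR adjusted p = 0.0109) and the protease HTRA2 (0.69, edgeR adjusted p = 0.0463). PAM16 overlaps a read-through gene with CORO7, and its counts are uncertain. Of 18 endoplasmic reticulum chaperones 2 rose (11.1%, against 8.58%) and 0 fell, against 7.53%. At an unadjusted p below 0.05 by edgeR, 5 were higher (27.8%, against 18.2%) and 1 lower (5.56%, against 17.0%). With so few calls, no direction can be read from either list. The 2 endoplasmic reticulum genes were the J-domain partner of BiP DNAJB9 (0.98, edgeR adjusted p = 0.0220) and the secretory chaperone ERP29 (0.61, edgeR adjusted p = 0.0453). HSPA5, BiP, the HSP70 of that compartment, had 1373 and 1337 CPM in RB-BC, against 992 and 919 CPM in DMSO (0.50 ± 0.16, edgeR adjusted p = 0.0768). Of the other small HSP genes only HSPB6 was tested (−0.17 ± 0.56, edgeR adjusted p = 0.853), and the other 6 had too few counts. All 11 genes called kept their direction with any 1 library left out. With library totals alone 5 remained, and BAG2, DNAJB2, DNAJC2, VBP1, HTRA2 and ERP29 were lost. BAG2 was also lost with limma-voom and with no filter on low counts, HTRA2 with limma-voom, and ERP29 with the replicate number as a block.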

How the data were processed

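The authors deposited raw counts per gene, whole numbers in 1 column for each library. The submitters' processing notes name GRCm38 and mm10, both of mouse, yet every one of the 20263 identifiers is human. The aligner, the counter, the annotation and the strand setting are each not given in the sources used here. Symbols came from an identifier table for 20148 genes and from GENCODE 29 for 76. Sequences are RefSeq windows on GRCh38.p14.

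Groups came from the sample titles. edgeR 4.0.16 in R 4.3.3 kept genes by filterByExpr (minimum count 10, total 15), scaled by TMM and fitted all genes in a quasi-likelihood model without a replicate term, two-sided. The test was checked on simulated counts with a common spread for every gene and library, unlike the unequal spread of the libraries here. Members and lists were chosen with earlier results of these data known. All members are accounted for, with full values for those past the threshold and a fixed set of others. From each other list up to 4 genes past the threshold are named (2 where none passed). CCT6A and HSPA5 were named after their values were seen. Alternatives were RLE factors, library totals, 2 other filters, DESeq2 1.42.0, limma-voom (limma 3.58.1), a replicate block, removal of mitochondrially encoded genes, and leaving out each library. Per-gene precision is limited by n = 2 per group, and for genes with few counts, such as HSPA2 (33 to 108 counts), also by depth.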

Additional observations from a re-analysis of the deposited data

How the results depend on the processing

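With limma-voom, RLE factors, mitochondrially encoded genes removed, no filter on low counts, or genes averaging 50 counts or more, all 40 chaperone genes kept their direction and their side of the threshold. With library totals alone 5 members (12.5%) were called lower, against 415 of all 13744 tested genes. HSPA2, HSPA14 and HSP90AA1 were lost from the 8. Calls over the whole table then numbered 1205 instead of 2214, and 65.6% of calls were higher in RB-BC, against 53.3% with TMM. DESeq2 called 14 members lower and 1 higher. When each library was left out in turn, members called lower ranged from 0 to 17, members called higher from 0 to 3, calls over the whole table from 205 to 3648 and the members' median log2 fold change from −0.39 to −0.23. With 3 libraries the lone library of a group is assumed to vary like the other group. No member that passed reversed its sign in any of these fits. The replicate numbers share only a number: deviations of same-numbered libraries had a correlation of −0.03 across 13744 genes. With the replicate block, 9 members (22.5%) were called lower (CHORDC1 passed, adjusted p = 0.0338) and 0 higher. Calls over the whole table numbered 2114, of which 54.5% were higher in RB-BC.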

Other observations

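Levels between genes can be compared only per length. Dividing CPM by the merged exon length of GENCODE 29 gives an approximate level in CPM per kilobase, which is too low for genes with long rarely used exons. On that scale HSPA8 (634 in RB-BC, 1139 in DMSO), HSP90AB1 (643 and 705) and HSP90AA1 (376 and 748) were the most abundant chaperone mRNAs of the 40 in both groups. HSPB1 followed (304 and 243), then CDC37 (263 and 235). HSP90AB1 stood above HSPA8 in the RB-BC means (643 against 634) and below it in DMSO, a difference within the replicate spread in RB-BC. HSPA2 (0.165 and 0.494) and HSPB8 (1.99 and 2.18) were the least abundant. HSF1 stood at 81.1 in RB-BC and 62.1 in DMSO and HSF2 at 4.06 and 5.58, given in the same order of groups.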
